A study of Apis mellifera with 18 samples.

Results

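The enzymes with which honeybee (Apis mellifera) workers digest sugar and turn nectar into honey were followed through the transcripts of 5 genes. These were the alpha-glucosidase genes Hbg1 (NM_001040236.1), Hbg2 (NM_001040259.1) and Hbg3 (NM_001011608.1), the alpha-amylase gene LOC406114 (NM_001011598.1) and the glucose oxidase gene LOC406081 (NM_001011574.1). The members were taken by gene name and not by a threshold on expression level, but with earlier results of these data known. Each gene had 1 transcript in the count files, so that 5 of the 28396 counted transcripts are described. All 5 passed the filter on low counts that left 10209 transcripts for testing.

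Workers of 1 colony, Colony 36, were dissected into brain, ventriculus (the part of the gut that digests food, or midgut) and Malpighian tubules (the excretory organ), and the RNA of these 3 tissues was sequenced. A library, of 18 in all, held 1 tissue of 5 workers of 1 patriline (workers that share a father), with 300 ng of RNA from each worker, and n was 6 pools per tissue, from patrilines P1, P7, P8, P11, P21 and P24. The workers were taken from the hive at an age of 7 days, starved for 2 h on the next day, offered 20 µL of 50% sucrose with clothianidin at 4.27 ppb for 4 h, and frozen 24 h later. Clothianidin is a neonicotinoid insecticide, and every library came from exposed workers. Unexposed workers were not analysed here, and the sample labels give no tolerance class of a patriline, so that values are given per patriline and the comparisons are between tissues.

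Alpha-glucosidases split sucrose into glucose and fructose. Worker bees carry several: the enzymes encoded by Hbg1 and Hbg2 are known from the midgut, whereas the Hbg3 enzyme is the one that the hypopharyngeal glands, paired glands of the head, secrete into nectar. The same glands secrete amylase, which cuts starch, and glucose oxidase, which turns glucose into gluconic acid and hydrogen peroxide and gives honey much of its antibacterial activity. In young nurse bees the glands mainly make the major royal jelly proteins (Mrjp), and in foragers they turn to the sugar enzymes. Several Mrjp genes are also transcribed in the bee brain itself.

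Library totals ranged from 39722329 to 87946924 counts. Levels are given as scaled CPM, a CPM (count relative to the library total) whose total was first corrected by TMM, edgeR's factor for differences in library composition. The factors lay between 0.472 and 0.613 in the ventriculus, between 1.08 and 1.34 in the tubules and between 1.19 and 1.78 in the brain, so scaled CPM are above the plain CPM in the ventriculus and below it in the other tissues. Levels were not divided by transcript length. Shares and count ratios between genes are therefore compared only between pools and tissues, and do not rank the genes. The tissue labels were checked with marker genes. The summed level of the 18 nervous tissue genes found, of 21 listed, was 3229 to 9782 scaled CPM in the brain, 442 to 1272 in the tubules and 72.7 to 86.5 in the ventriculus. Of the 18 genes, 14 had their highest mean in the brain, 2 in the ventriculus and 1 in the tubules, and Dop3 had no count. The midgut aminopeptidase N genes LOC551180 and LOC551224 together reached 22421 to 42113 scaled CPM in the ventriculus, 628 to 6450 in the tubules and 1.97 to 44.7 in the brain. The summed level of the CYP9Q genes, which encode insecticide-metabolising cytochromes P450, overlapped between the tubules (17158 to 41961) and the ventriculus (12018 to 26192). Singly, these genes did not overlap between the 2 tissues. CYP9Q2 (12987 to 24626 against 1689 to 3567) and CYP9Q3 (1110 to 12068 against 232 to 1101) were higher in the tubules. CYP9Q1 was lower there (3060 to 6947 against 8861 to 23826). Several pools stood apart. The brain pools of P11 and P21 held 28.1% and 19.2% of their counts in Mrjp transcripts, against 0.856% to 3.97% in the other 4. Among the tubule pools, P21 had the highest summed nervous tissue list (1272 scaled CPM, next 930 in P7) and the highest Mrjp sum (10386). The ventriculus pool of P7 carried venom gland transcripts (15218 scaled CPM in 3 genes).

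Hbg1 and Hbg2 were transcripts of the ventriculus. Hbg1 had a lowest, median and highest level of 49314, 64086 and 84100 scaled CPM in the ventriculus, of 201, 950 and 4405 in the tubules and of 187, 330 and 384 in the brain. No ventriculus pool overlapped with a pool of another tissue, whereas the brain range lay partly within the tubule range. Hbg2 had 64567, 102064 and 142065 scaled CPM in the ventriculus and 366, 1066 and 9266 in the tubules. In the brain it had 1.25, 2.14 and 89.7 scaled CPM. All 3 tissues were separate for Hbg2, with the tubules between the other two. Together these transcripts took 7.04% to 10.7% of all counts in a ventriculus library, 0.0615% to 1.53% in a tubule library and 0.0238% to 0.0672% in a brain library. The widest 95% Wilson interval of such a share for a single transcript spanned 0.013 percentage points, and these intervals cover counting error only. How many of all transcripts separate the tissues without overlap, or keep the same direction in every patriline, was not counted. Such separations are therefore given here and below as a description, not as a trait particular to these enzymes.

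The amylase transcript LOC406114 was also highest in the ventriculus, at 11754, 12237 and 16558 scaled CPM (lowest, median and highest). It had 136, 498 and 2394 scaled CPM in the brain and 68.9, 280 and 566 in the tubules. The ventriculus was separate from both other tissues, which overlapped with each other. Between ventriculus pools the amylase was even, with a standard deviation of log2(scaled CPM + 1) of 0.19, close to the median of 0.18 over the 6512 tested transcripts with a mean of at least 1 scaled CPM there.

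Hbg3 and glucose oxidase were highest in the libraries labelled brain. Hbg3 had 651 scaled CPM in the brain of P1, 417 in P7, 1117 in P8, 7418 in P11, 8643 in P21 and 474 in P24. The pools of P11 and P21 stood far above the other 4. In the ventriculus Hbg3 was low, between 59.7 and 116 scaled CPM. Its standard deviation of log2(scaled CPM + 1) there was 0.30, larger than that of 77.0% of the transcripts compared (median 0.18). In the tubules Hbg3 had 3.03, 6.87, 38.4, 84.1, 684 and 9.04 scaled CPM in P1, P7, P8, P11, P21 and P24. The tubule pools of P11 and P21 were again the highest, and the tubule range enclosed that of the ventriculus.

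Glucose oxidase, LOC406081, showed the widest range of the 5. Its brain levels were 955, 713, 2108, 10601, 10351 and 783 scaled CPM in P1, P7, P8, P11, P21 and P24. In the tubules it reached 1251 scaled CPM in P21 and 67.6 in P11, and between 0.0232 and 0.825 in the other 4 pools. In the ventriculus it had 50.9 scaled CPM in P21 and 3.43 in P11, and between 0.0225 and 0.202 in the other 4. The count behind the lowest values was 1, 1 and 2 reads in the ventriculus of P1, P7 and P8 and 1 read in the tubules of P7. Brain and ventriculus did not overlap, and the tubule pool of P21 lay within the brain range.

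**Figure D1:**
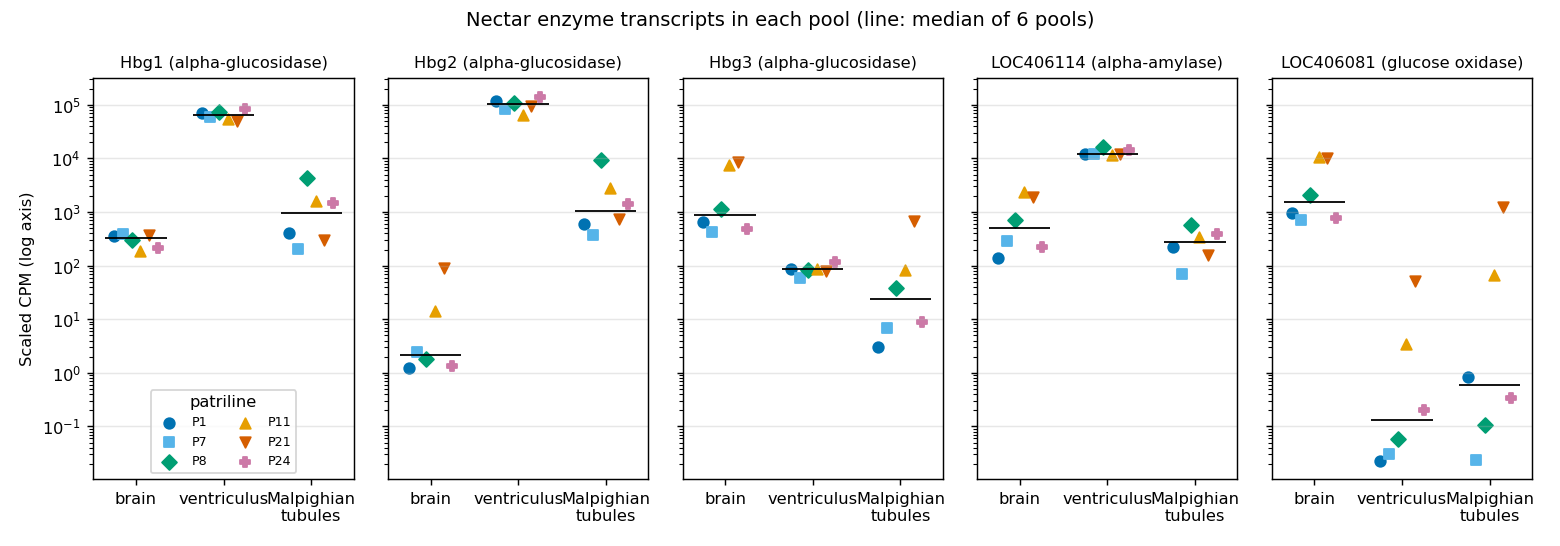
Scaled CPM (log axis) of each transcript in the 18 pools, by tissue, with symbols for the patriline and a line at the median of 6 pools; levels are not per length, so the panels are not compared with each other. Hbg1, Hbg2 and LOC406114 lie highest in the ventriculus, Hbg3 and LOC406081 in the brain, with P11 and P21 above the other brain pools for Hbg3, LOC406114 and LOC406081.

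The tissues were compared with edgeR's quasi-likelihood test across all 10209 transcripts, with Benjamini-Hochberg adjusted p-values and a threshold of 0.05. In bulk tissue, fewer cells of a type and less RNA per cell cannot be told apart. Pools of different patrilines held different workers, whereas the 3 pools of 1 patriline were tissues of the same workers. A second fit took the patriline as a block, and its values are given beside those of the main fit. The scaling moved the reference point: the median logFC (log2 fold change) over all transcripts was 0.23, 0.15 and 0.11 for brain against ventriculus, tubules against ventriculus and brain against tubules. With scaling to library totals alone it was 1.79, 1.30 and 0.52. Relative to that median the members moved little, for example from −7.98 to −7.93 for Hbg1 and from −4.03 to −4.25 for LOC406114 in brain against ventriculus. Each of the 15 member differences kept its direction under both scalings.

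Brain against ventriculus separated the members into a ventriculus group and a brain group. Hbg1 was 215 times lower in the brain (logFC −7.75 ± 0.82 SE, adjusted p = 1.73e-07), Hbg2 5557 times lower (logFC −12.44 ± 1.69, adjusted p = 3.13e-06) and amylase 14.0 times lower (logFC −3.81 ± 0.69, adjusted p = 7.18e-05). Hbg3 was 36.4 times higher in the brain (logFC 5.19 ± 1.29, adjusted p = 0.00145). Glucose oxidase was higher in the brain as well (logFC 8.87 ± 2.76, adjusted p = 0.00735), against a ventriculus mean of 9.10 scaled CPM that rested on the 50.9 of P21. Each direction held in 6 of 6 patrilines. With the patriline as a block all 5 calls held, but sizes moved. The logFC was then 3.51 ± 0.85 for Hbg3 and 13.48 ± 1.59 for glucose oxidase. For Hbg2 it was −14.24 ± 1.79, for amylase −4.35 ± 0.71 and for Hbg1 −7.64 ± 0.85.

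All 5 transcripts were thus called, but 77.4% of all tested transcripts were called in this comparison, so a count of 5 of 5 is not a result about the enzymes. Of the tested transcripts, 44.2% were higher in the brain and 33.3% higher in the ventriculus; with library totals alone this split was 79.4% and 9.28%. The sizes lay towards the ends of the distribution. Only 0.157% of transcripts had a logFC as low as Hbg2 and 0.96% one as low as Hbg1, whereas 0.774% had one as high as glucose oxidase and 6.29% one as high as Hbg3.

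The sizes of several of these differences moved with P11 and P21. Without both patrilines, a choice made after seeing the data, the logFC of Hbg3 was 2.90, that of amylase −5.37, that of Hbg2 −16.05 and that of glucose oxidase 13.81. With only the brain pools of P11 and P21 left out, glucose oxidase moved the other way, to 6.93 (adjusted p = 0.0210). Leaving out P21 alone moved Hbg2 to −14.61, Hbg3 to 4.53 and glucose oxidase to 11.98, and leaving out P11 alone moved glucose oxidase to 8.18. All 5 calls held in each of these fits.

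The Malpighian tubules were low in the same 3 transcripts as the brain. Against the ventriculus, Hbg1 was 46.5 times lower (logFC −5.54 ± 0.74, adjusted p = 6.74e-06), amylase 45.5 times lower (logFC −5.51 ± 0.74, adjusted p = 7.31e-06) and Hbg2 40.4 times lower (logFC −5.33 ± 1.27, adjusted p = 0.00165), each in 6 of 6 patrilines. Without P8, whose tubule pool was the highest for both, the logFC was −6.26 for Hbg1 and −6.36 for Hbg2. With the patriline as a block the logFC was −5.985 for Hbg1, −5.743 for amylase and −6.167 for Hbg2, and all 3 calls held. Here 3 of the 5 members were called, beside 59.3% of all tested transcripts, which is the background share. By size these 3 were near the lower end, with 3, 5 and 12 of the 10209 transcripts having a logFC as low as Hbg1, amylase and Hbg2. Of all transcripts, 32.8% were higher in the tubules and 26.5% in the ventriculus, and 77.1% and 6.61% with library totals alone.

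Neither Hbg3 nor glucose oxidase passed the threshold between tubules and ventriculus. Hbg3 had a logFC of 0.68 ± 1.09 (adjusted p = 0.603), although 5 of 6 patrilines had the lower level in the tubules. The direction turned with the patriline as a block (−1.96, adjusted p = 0.0778) and without P21 (−1.62, adjusted p = 0.147). Without P11 and P21 together Hbg3 was called lower in the tubules (−2.59, adjusted p = 0.00441). Glucose oxidase had a logFC of 4.60 ± 2.28 (adjusted p = 0.0911), with 5 of 6 patrilines higher in the tubules. It passed with the block (3.39, adjusted p = 0.0317), with DESeq2 (4.51, adjusted p = 0.0151) and with library totals (5.72, adjusted p = 0.0335), and not without P11 and P21 (2.17, adjusted p = 0.0976).

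Between brain and tubules, Hbg2 and Hbg1 were lower in the brain and Hbg3 and amylase higher. Hbg2 was 138 times lower in the brain (logFC −7.11 ± 1.37, adjusted p = 0.000164), in 6 of 6 patrilines, and Hbg3 was 22.7 times higher there (logFC 4.504 ± 1.25, adjusted p = 0.00359), also in 6 of 6. Hbg1 was 4.62 times lower in the brain (logFC −2.21 ± 0.64, adjusted p = 0.00481), in only 4 of 6 patrilines. Amylase was 3.25 times higher in the brain (logFC 1.70 ± 0.63, adjusted p = 0.0214), also in 4 of 6. Glucose oxidase was above its tubule level in all 6 brain pools, but the difference did not pass (logFC 4.27 ± 2.24, adjusted p = 0.0931). Of the 5 members 4 were called, beside 75.0% of all tested transcripts; 40.5% were higher in the brain and 34.5% in the tubules, against 50.3% and 22.4% with library totals alone.

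Single patrilines moved the sizes. Without P8 the logFC of Hbg2 was −5.85 and that of Hbg1 −1.47 (adjusted p = 0.0423), and without P21 that of Hbg2 was −9.45 and that of Hbg3 6.15.

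The block by patriline changed 3 of these calls. Hbg1 (−1.66, adjusted p = 0.0549) and amylase (1.39, adjusted p = 0.0714) no longer passed, and glucose oxidase did (10.08, adjusted p = 4.55e-05). Hbg2 (−8.08) and Hbg3 (5.47) kept their calls with the block. Glucose oxidase also passed without P21 (7.77, adjusted p = 0.00395), the patriline whose tubule pool held 1251 scaled CPM. Amylase did not pass without P11 (1.22, adjusted p = 0.115) or P21 (1.25, adjusted p = 0.111), and without both its logFC was 0.09 (adjusted p = 0.897). With only the brain pools of P11 and P21 left out, glucose oxidase had 2.34 (adjusted p = 0.333) and Hbg3 2.23 (adjusted p = 0.0678), whereas with both patrilines left out of all tissues it had 5.49 (adjusted p = 1.93e-05).

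**Figure D2:**
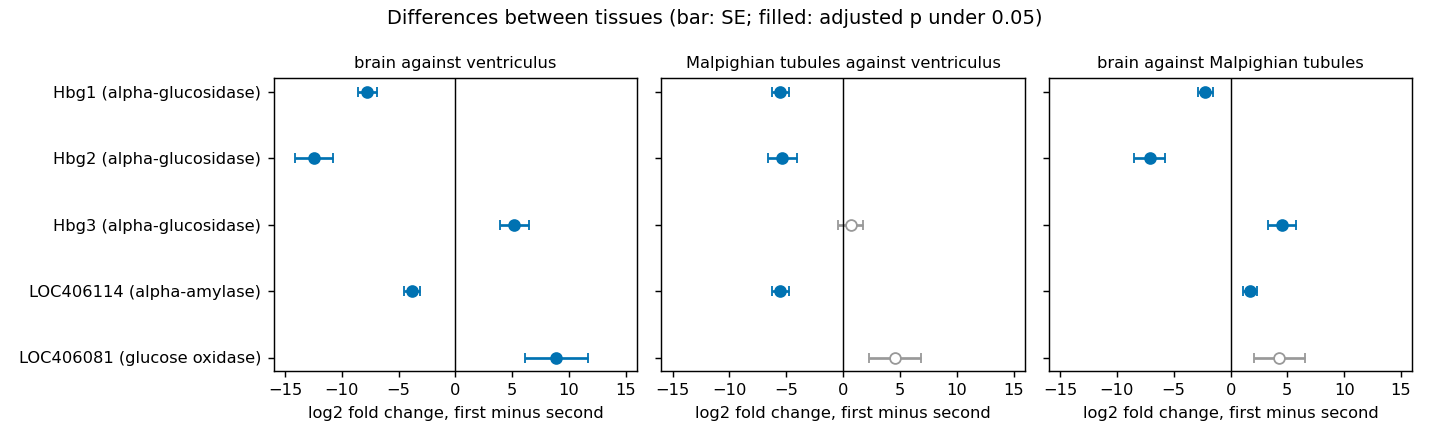
The logFC of each transcript (points, with SE bars) in the 3 tissue comparisons from edgeR's quasi-likelihood test, first tissue minus second; filled points had an adjusted p under 0.05. Hbg1, Hbg2 and LOC406114 lie left of 0 in both comparisons with the ventriculus, and LOC406081 has the widest bars, from 2.24 to 2.76.

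In every patriline the brain held a smaller Hbg2 share and a larger Hbg3 share of the alpha-glucosidase counts than the other tissues. In the ventriculus, Hbg2 held 60.8% ± 3.87 (SD, n = 6) of the counts of the 3 genes, Hbg1 39.2% ± 3.87 and Hbg3 0.0523% ± 0.0114. The pools were close to each other: the count ratio of Hbg2 to Hbg1 lay between 1.21 in P11 and 1.93 in P21. In the brain, Hbg3 held 76.0% ± 17.9, Hbg1 23.7% ± 18.0 and Hbg2 0.321% ± 0.332. The brain pools of P11 and P21 had the highest Hbg3 shares (97.4% and 95.0%), and P7 the lowest (51.9%). These are shares of counts, which were not divided by length.

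In every tubule pool Hbg1 and Hbg2 together held more of the counts than Hbg3, as in the ventriculus. In the tubules Hbg2 held 57.5% ± 9.80 and Hbg1 35.2% ± 11.1. Their order turned in P24, with 51.3% Hbg1 and 48.4% Hbg2. The count ratio of Hbg2 to Hbg1 lay between 0.943 in P24 and 2.47 in P21, a range that encloses that of the ventriculus. Hbg3 held between 0.28% and 1.86% in 5 tubule pools and 40.1% in P21, against 0.0416% to 0.0733% in the ventriculus. Of the 9 comparisons of shares between tissues, 5 reached the smallest p that an exact two-sided paired sign-flip permutation test over 6 patrilines can give (p = 0.0313, 0.0563 after Benjamini-Hochberg adjustment over the 9), so that none passed after adjustment. These were the share of Hbg2 in the brain against each other tissue (lower in 6 of 6 patrilines) and the share of Hbg3 in all 3 comparisons (6 of 6 each). The share of Hbg2 differed by −3.29 percentage points ± 13.0 between tubules and ventriculus (exact permutation p = 0.563, adjusted 0.563), with 3 of 6 patrilines higher in the tubules.

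**Figure D3:**
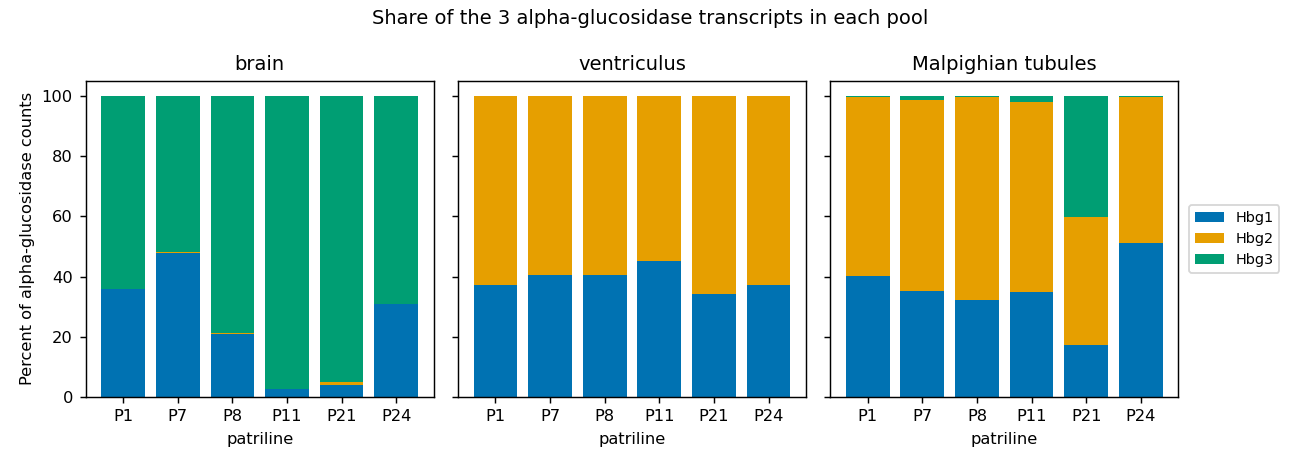
Percent of the counts of the 3 alpha-glucosidase transcripts that fell on Hbg1, Hbg2 and Hbg3 in each pool, by tissue and patriline. Hbg2 holds 54.7% to 65.8% in the ventriculus and under 1% in each brain pool, and the tubule pool of P21 stands out with 40.1% Hbg3.

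The brain levels of Hbg3 and glucose oxidase went with those of the royal jelly genes. The summed level of the Mrjp genes was 15646, 12540, 22481, 236891, 147653 and 4821 scaled CPM in the brain of P1, P7, P8, P11, P21 and P24, so that P11 and P21 were the highest for them too. Of the 9 Mrjp genes, 7 were tested, and 5 of these were higher in the brain than in the ventriculus (44.2% of all tested transcripts were), with a median logFC of 8.43 beside 0.23 over all transcripts. Between tubules and ventriculus 2 of the 7 were called, both higher in the tubules, as were 32.8% of all transcripts. Between brain and tubules 3 were called higher in the brain, beside 40.5% of all transcripts, and 1, Mrjp8, lower. The last 2 counts are near the background share. The median logFC of the 7 was 3.31 and 4.98 in these comparisons, beside 0.15 and 0.11 over all transcripts. Mrjp2 had no count in any ventriculus or tubule library.

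Per 1000 counts of Mrjp transcripts, the brain pools held 44.8 to 162 counts of glucose oxidase and 31.3 to 98.3 of Hbg3. Both ratios spanned less than the levels themselves, whose highest pool was 14.9 times the lowest for glucose oxidase and 20.7 times for Hbg3. Both ratios were highest in P24, the brain pool with the fewest Mrjp counts. The count ratio of Hbg3 to glucose oxidase was narrower still in the brain, between 0.53 and 0.835. Amylase per 1000 Mrjp counts lay between 8.71 and 47.1. For Hbg1, the brain level was lowest in P11 (187 scaled CPM), and the highest pool was 2.06 times the lowest.

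Other marker transcripts also set the brain pools of P11 and P21 apart. The summed fat body list was at 592 scaled CPM in P11 and 500 in P21, against 29.5 to 53.3 in the other 4, and Lop1, the opsin of the long-wavelength photoreceptors, at 7722 and 3065 against 262 to 716. AChE-2 was at 1042 and 992 scaled CPM, against 2237 to 3241 in the other 4, and Oa1, Dop1 and nAChRa1 were also lowest in these 2 pools. The summed nervous tissue list, which includes Lop1, went the other way. It was at 9782 scaled CPM in P11 and 4986 in P21, against 3229 to 4841 in the other 4. The part of gland, eye or fat body RNA in the brain values was not tested.

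The pools of P11 and P21 carried glucose oxidase in the other tissues too, together with the Mrjp transcripts. In the tubules the Mrjp sum was 10386 scaled CPM in P21 and 1673 in P11, against 292 to 418 in the other 4 pools. In the ventriculus it was 383 and 399 scaled CPM, against 45.2 to 85.7. Mrjp1 alone had 8024 and 917 scaled CPM in the tubules of P21 and P11 and at most 3.38 in the others.

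The tubule pool of P21 can be read against the brain pool of the same workers. Glucose oxidase stood there at 12.1% of its brain level, Hbg3 at 7.91%, Mrjp1 at 6.79%, Mrjp3 at 8.24% and Mrjp5 at 6.19%. Mrjp6 did not set this pool apart, at 3.07% in P21 beside 3.34% in P11 and 2.52% in P24. The nervous tissue transcript AChE-2, an acetylcholinesterase, stood at 28.9% and the opsin Lop1 at 13.0%. In the other 5 patrilines the tubules held at most 0.638% of the brain level of glucose oxidase, 3.44% of that of Hbg3 and 0.668% of that of AChE-2. The count ratio of Hbg3 to glucose oxidase in this pool was 0.547, within the range of the brain pools, and between 1.24 and 356 in the other tubule pools. The nervous tissue list as a whole set P21 less apart. Its tubule sum was 1272 scaled CPM in P21 and next highest, at 930, in P7. There AChE-2 had 7.27 and Lop1 0.0929 scaled CPM, against 287 and 399 in the tubules of P21. UVop, on the same list, was called lower in the brain than in the tubules over all patrilines (logFC −2.12). The part of brain or gland RNA in the tubule values of P21 was not tested.

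The nervous transcripts of the P11 tubule pool were mixed. AChE-2 had 6.96 scaled CPM, within the 4.14 to 7.27 of the pools other than P21, while glucose oxidase was at 67.6. Lop1 (2.76 scaled CPM against 0.0929 to 0.481 in P1, P7, P8 and P24) and the receptor transcripts nAChRa1 (13.9 against 4.39 to 12.4), Oa1 (8.80 against 3.80 to 7.04) and Dop1 (3.04 against 1.37 to 2.73) were higher in P11 than in those 4 pools. The part of brain or gland RNA in the tubule values of P11 was not tested either. In the ventriculus, where Hbg3 was present in every pool at 59.7 to 116 scaled CPM, its level did not follow the Mrjp sum: P11 and P21 had 86.6 and 80.0 scaled CPM, in the middle of the range.

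**Figure D4:**
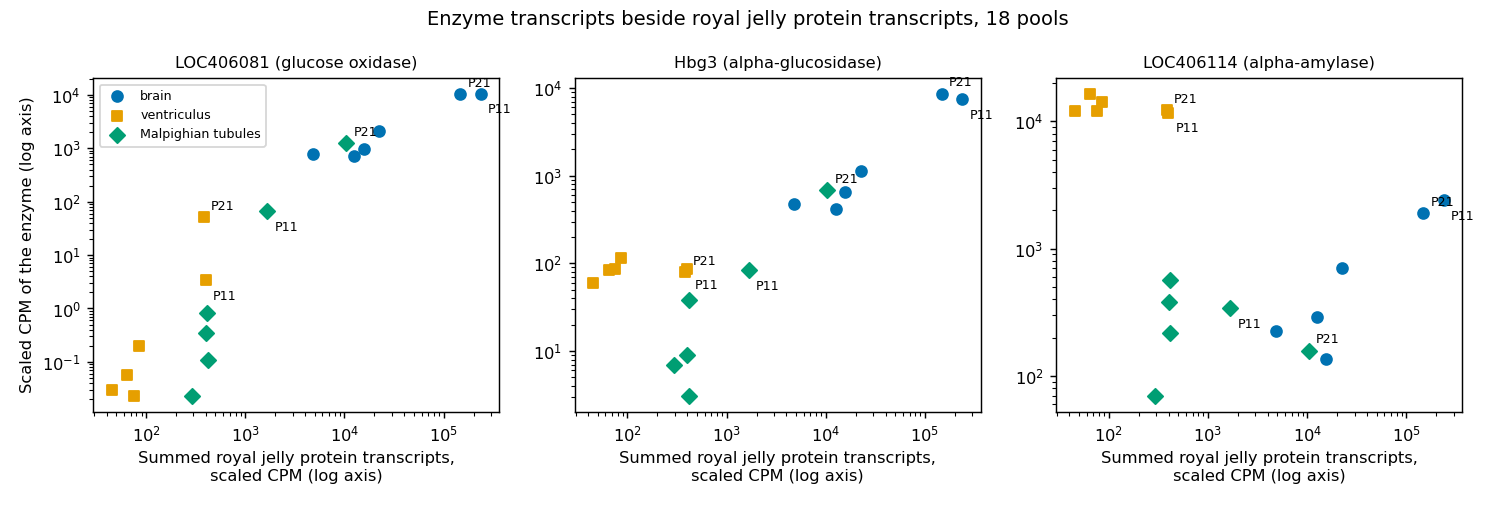
Scaled CPM of glucose oxidase (LOC406081), Hbg3 and amylase (LOC406114) against the summed scaled CPM of the Mrjp transcripts in the 18 pools (both axes log), with colour for the tissue and labels for P11 and P21. The tubule pool of P21 lies beside the brain pools for LOC406081 and Hbg3, and the ventriculus pools lie high for LOC406114 at 45.2 to 399 scaled CPM of Mrjp.

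Hbg1, Hbg2 and amylase varied between the tubule pools in another order than Hbg3 and glucose oxidase. Hbg1 had 410, 201, 4405, 1581, 295 and 1489 scaled CPM in the tubules of P1, P7, P8, P11, P21 and P24. Hbg2 had 604, 366, 9266, 2860, 728 and 1405, and amylase 218, 68.9, 566, 341, 158 and 382 scaled CPM in the same order. P8 was the highest and P7 the lowest for all 3, and the pools of P11 and P24 came next after P8 for Hbg1 and Hbg2.

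Relative to the ventriculus of the same workers, the tubules held 0.345% to 5.89% of the Hbg1 level, 0.43% to 8.5% of Hbg2 and 0.572% to 3.42% of amylase. The midgut aminopeptidase N transcript LOC551180, which cuts peptides, was at 1.48% to 19.3%, and LOC551224 at 3.61% to 26.9%. The aminopeptidases did not keep the order of the enzymes: LOC551180 was at 13.9% in P1 and 15.2% in P21, where Hbg1 was at 0.586% and 0.598%, and at 2.89% in P11 and 1.48% in P24, where Hbg1 was at 2.96% and 1.77%. P8 was highest for both kinds. These aminopeptidases were named by the study from these same tubule libraries, so they are not an independent marker there.

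Fat body transcripts were also uneven between the tubule pools. The summed level of Vg (vitellogenin) and the hexamerins Hex70a, Hex70b, Hex70c and Hex110 was 159, 146, 1231, 2012, 290 and 538 scaled CPM in P1, P7, P8, P11, P21 and P24. The pools of P8, P11 and P24, the highest for Hbg1 and Hbg2, were also the highest for this list, at 538 to 2012 against 146 to 290 in the other 3. The part of midgut or fat body RNA in the tubule values of Hbg1, Hbg2 and amylase was not tested.

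**Figure D5:**
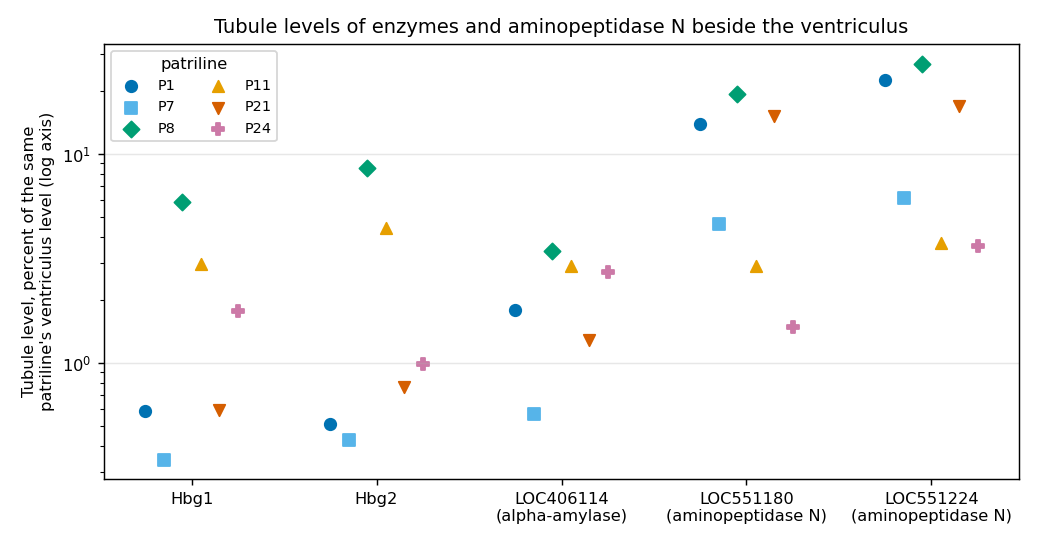
Level in the tubule pool as a percent of the level in the ventriculus pool of the same patriline (log axis) for Hbg1, Hbg2, amylase and the aminopeptidase N transcripts, with symbols for the patriline. P8 is highest for each of the 5, and P1 and P21 lie low for Hbg1 and Hbg2 and high for the aminopeptidases.

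Hbg2 was also uneven in the brain, where it had 1.25, 2.46, 1.82, 14.0, 89.7 and 1.35 scaled CPM in P1, P7, P8, P11, P21 and P24. P21 stood apart. In the same brain pool, LOC551180 had 43.5 scaled CPM against 0.826 to 1.10 in the other 5, and CYP9Q1 and CYP9Q2 had 563 and 3501 against 20.6 to 83.7 and 887 to 1282. The other midgut marker, LOC551224 (1.25 scaled CPM), and CYP9Q3 (533) lay within the range of the other 5 brain pools. Hbg2 in this pool was at 0.0944% of the ventriculus level of P21, and LOC551180 at 0.195%. LOC551224 had only 126 scaled CPM in the ventriculus of P21. A share this small would not show above its 0.874 to 1.68 scaled CPM in the other 5 brain pools. In P11, where Hbg2 was second highest, LOC551180 was at 0.881 scaled CPM, within the range of the brain pools other than P21. The part of gut or tubule RNA in the brain value of P21 was not tested.

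Across the 18 libraries, the transcripts most like each member (highest Pearson correlation of log2(scaled CPM + 1), members left out) are given as a description. The points share the 3 tissues and the same workers, and no p is given. For glucose oxidase they were Mrjp5 (r = 0.994), Mrjp1 (0.983), Mrjp3 (0.982), Mrjp6 (0.974) and the opsin Lop1 (0.958). For Hbg3 the closest was LOC406093 (r = 0.973), with mean levels of 9752 scaled CPM in the brain, 70.0 in the ventriculus and 315 in the tubules, followed by LOC724390 (0.96), LOC113218518 (0.943), LOC102654715 (0.919) and LOC102655228 (0.913).

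Hbg1 and Hbg2 had other ventriculus transcripts as their closest. For Hbg2 these were LOC100577156 (r = 0.992), LOC102654405 (0.991), LOC727522 (0.99), LOC410894 (0.99) and LOC727243 (0.989), and for Hbg1 they were LOC413574 (0.983), LOC725756 (0.981), LOC409341 (0.978), LOC552073 (0.977) and LOC102653947 (0.975). Amylase had LOC100576961 (0.958), LOC410315 (0.957), LOC551290 (0.955), LOC102654929 (0.948) and LOC724907 (0.942). LOC100576961 was near the floor, with mean levels of 0.18 scaled CPM in the brain, 0.61 in the ventriculus and 0.12 in the tubules. LOC410315 had 66.7, 149 and 55.2 in the same order, a small difference between tissues beside that of amylase. Among the members themselves, r was 0.896 between Hbg1 and Hbg2, 0.875 between Hbg3 and glucose oxidase and −0.756 between Hbg2 and glucose oxidase.

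A list of 45 names of sugar metabolism and sugar receptor genes was matched by symbol or synonym, as no product names were at hand. Only Tret1, a transporter of trehalose (the main blood sugar of insects), matched. Genes held under other symbols may still be among the counts. All 4 tested transcripts of Tret1 were higher in the brain than in the ventriculus (median logFC 1.34, beside 0.23 over all transcripts, of which 44.2% were called higher). They were also higher in the tubules than in the ventriculus (median logFC 2.21, beside 0.15 and 32.8%). Between brain and tubules, 1 was called higher in the brain and 2 lower, beside 40.5% and 34.5% of all transcripts. The summed level of Tret1 was 135 to 259 scaled CPM in the brain, 37.2 to 89.7 in the ventriculus and 271 to 321 in the tubules.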

How the data were processed

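Total RNA libraries (stranded kit) were trimmed with Trimmomatic, aligned with STAR and counted with HTSeq by the authors; the deposited values are raw counts per transcript without normalization. For tool versions and the strand setting: not given in the sources used here. Symbols came from a RefSeq table of Amel_HAv3.1, which matched 27887 of 28396 features, while the study names Amel_4.5. No coordinates are printed for that reason. HTSeq's ambiguous class, left out of library totals, differed by tissue. It held 30.9% to 32.9% of fragments in the ventriculus, 45.6% to 47.2% in the tubules and 42.0% to 50.3% in the brain. Among the brain pools it was lowest in P11 (42.0%) and P21 (43.5%). The table places Hbg1 and Hbg3 within the span of LOC724389, Hbg2 within LOC725803 and LOC406081 within LOC411116, so reads may be shared or lost.

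Transcripts passing filterByExpr (minimum count 10, minimum total 15, by tissue) were tested with edgeR 4.0.16 (TMM, glmQLFit, glmQLFTest, all 18 libraries, R 4.3.3). A check on simulated data changed few transcripts, in the brain group only. It therefore does not cover the broad differences between tissues found here. SE was derived from the logFC and its F statistic. DESeq2 1.42.0, library-total scaling, no filter, summed transcripts, a patriline block, left-out pools and fits of 12 libraries were alternatives. Same-numbered pools were tissues of the same workers, which pairs them; same-patriline deviations from tissue means correlated at −0.147 to 0.535 over 18 pairs, so the block was run beside the main fit. The members, lists and alternatives were chosen with earlier results of these data known. The transcripts named are the members, the Mrjp genes, marker and sugar lists, and the 5 most correlated with each member. Python 3.11.15 was used for shares and figures.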

Additional observations from a re-analysis of the deposited data

Results flagged for a closer look

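In 6 of 15 groups of pools (5 transcripts in 3 tissues), 1 pool lay far from its nearest neighbour, relative to the whole range of the group. It passed Dixon's 95% limit for 6 samples. That limit assumes normally distributed values and was applied to scaled CPM without a log, so no chance rate is set beside the 6 groups. For Hbg1 and Hbg2 the flagged pool was the tubule pool of P8, with 4405 and 9266 scaled CPM. For the others it was a pool of P21: Hbg2 in the brain (89.7 scaled CPM), Hbg3 in the tubules (684), and glucose oxidase (LOC406081) in the tubules (1251) and in the ventriculus (50.9). The 4 P21 values come from workers of 1 patriline, and 2 of them from 1 library, so they are not independent of each other.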

How the results depend on the processing

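Of 225 alternative values of the member differences, 207 kept direction and side of the threshold, 8 lost and 7 gained the call, and 3 turned direction. The logFC of Hbg3, tubules against ventriculus, turned with the patriline block (−1.96) and without P11 and P21 (−2.59), and ranged from −1.62 to 1.04 with each patriline left out in turn. That of glucose oxidase in the same comparison passed with library totals (5.72), DESeq2 (4.51) and the block (3.39). Brain against tubules, the block ended the calls of Hbg1 (−1.66) and amylase (1.39) and made that of glucose oxidase (10.08), and it changed no other call. Glucose oxidase there also passed with DESeq2 (4.30) and without P11 and P21 (11.64), and ranged from 3.57 to 7.77 with 1 patriline left out. Amylase there did not pass in the fit of 12 libraries (1.70), without the brain pools of P11 and P21 (0.17) or without both patrilines (0.087), and ranged from 1.22 to 2.01; Hbg3 did not pass without the brain pools of P11 and P21 (2.23). The cause of these changes was not tested. Called transcripts ranged from 6783 to 9057 (brain against ventriculus), 5294 to 8543 (tubules against ventriculus) and 6592 to 8497 (brain against tubules), and with the block there were 8030, 5993 and 7811. The shares per coding length were not run, as no protein length was at hand. In the ventriculus and tubules the depth limits only glucose oxidase, with 1 to 7 reads in 6 libraries.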
